A study of Mus musculus with 9 samples.

Results

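The genes described here encode the enzymes and regulators of cholesterol and fatty acid synthesis, a set of 33 genes taken by name from the 54532 genes of the deposited table. They comprised 18 sterol enzymes, 9 genes of fatty acid synthesis and desaturation, 5 regulators and the sterol carrier Stard4. Of the 33, 32 had enough counts to be tested, among 13326 tested genes in all. The exception was Elovl6, a fatty acid elongase, with 0 to 3 counts in any library. Expression was measured by sequencing poly(A)-selected RNA of RENCA, a renal carcinoma cell line of the mouse, in 3 groups of 3 libraries. The reference cells carried an empty vector and have the genotype label WT. The knockout cells, labelled NDUFA4L2 -/-, descend from single cells edited with a CRISPR guide and were picked by qPCR. The rescue cells, labelled NDUFA4L2 +/+, re-express the gene from a lentivirus and were selected with puromycin at 1.5 ug/mL; the labels do not say whether they derive from the sequenced knockout clone, nor whether the empty-vector cells were cloned. All groups grew in the same RPMI medium with 10% fetal bovine serum, itself a source of cholesterol and fatty acids. The number of clones behind the libraries is not stated either, so an effect of the gene and one of a clone, the virus or puromycin cannot be told apart.

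Cells make cholesterol from acetyl-CoA through mevalonate and the isoprenoid farnesyl diphosphate, which is joined head to head into squalene, closed into lanosterol and trimmed to cholesterol. Fatty acids start from the same acetyl-CoA, which is carboxylated, built into palmitate, elongated and desaturated. Both branches are switched on by the SREBP transcription factors, membrane proteins of the endoplasmic reticulum that Scap escorts to the Golgi for cleavage when sterol is low and that Insig proteins hold back when it is high. SREBP-2, from Srebf2, is known mainly for the sterol branch, and the SREBP-1c form of Srebf1 mainly for the fatty acid branch. In clear cell kidney cancer the tumour cells are known for stored cholesterol esters and triglycerides.

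SREBPs bind sterol regulatory elements next to sites for the factors NF-Y and Sp1. Promoter sequence from RefSeq (build GRCm38.p6, the assembly behind mm10) matched 26 of the 33 genes, in 34 windows of 300 bases around annotated starts. The sequences below, the 250 bases before the start of 6 genes, are shown because they stand for mevalonate genes that were as high in rescue as in knockout or nearly so (Hmgcs1 and Mvd), for a later enzyme and a regulator that fell in rescue against knockout (Ebp and Srebf2), for the feedback regulator Insig1, and for the fatty acid branch (Fasn). Capitals mark TCACNCCAC, a sterol regulatory element form, its first letters TCACCC alone, and CCAAT, the NF-Y core, on either strand (ATTGG and GGGTGA are CCAAT and TCACCC read from the other strand).
Hmgcs1 (chr13:119690101-119690350, plus strand): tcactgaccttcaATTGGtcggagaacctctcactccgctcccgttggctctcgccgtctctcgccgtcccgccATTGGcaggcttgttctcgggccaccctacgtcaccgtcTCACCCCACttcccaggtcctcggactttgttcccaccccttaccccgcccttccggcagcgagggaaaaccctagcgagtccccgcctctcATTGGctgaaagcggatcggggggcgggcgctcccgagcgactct
Mvd (chr8:122443423-122443672, minus strand): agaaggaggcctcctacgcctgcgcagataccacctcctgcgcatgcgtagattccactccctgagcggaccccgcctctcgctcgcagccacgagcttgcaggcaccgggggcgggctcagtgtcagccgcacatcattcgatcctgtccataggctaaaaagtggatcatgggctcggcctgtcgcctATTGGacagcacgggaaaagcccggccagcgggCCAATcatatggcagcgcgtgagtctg
Ebp (chrX:8193513-8193762, minus strand): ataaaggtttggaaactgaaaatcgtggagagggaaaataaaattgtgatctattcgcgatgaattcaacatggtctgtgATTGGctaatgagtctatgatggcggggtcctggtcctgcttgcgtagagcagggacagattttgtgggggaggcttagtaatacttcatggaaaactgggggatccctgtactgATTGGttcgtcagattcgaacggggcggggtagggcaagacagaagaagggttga
Srebf2 (chr15:82147019-82147268, plus strand): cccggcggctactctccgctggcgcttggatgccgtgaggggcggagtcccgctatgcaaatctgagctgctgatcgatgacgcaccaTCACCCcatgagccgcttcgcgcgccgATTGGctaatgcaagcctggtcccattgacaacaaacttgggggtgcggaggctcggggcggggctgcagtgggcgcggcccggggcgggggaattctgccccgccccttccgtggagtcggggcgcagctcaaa
Insig1 (chr5:28071162-28071411, plus strand): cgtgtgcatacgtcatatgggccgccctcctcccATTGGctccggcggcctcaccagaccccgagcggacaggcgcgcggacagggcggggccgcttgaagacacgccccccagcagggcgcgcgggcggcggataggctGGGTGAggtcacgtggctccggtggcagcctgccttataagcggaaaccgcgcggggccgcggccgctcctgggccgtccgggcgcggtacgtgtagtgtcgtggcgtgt
Fasn (chr11:120824548-120824797, minus strand): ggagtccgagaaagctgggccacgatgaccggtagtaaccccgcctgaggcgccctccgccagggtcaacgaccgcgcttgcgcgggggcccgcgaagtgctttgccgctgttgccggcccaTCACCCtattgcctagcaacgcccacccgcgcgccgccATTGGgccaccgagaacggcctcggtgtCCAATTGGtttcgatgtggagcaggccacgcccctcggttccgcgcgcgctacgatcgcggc
TCACNCCAC stood in Hmgcs1 alone of the 26 genes and in 1.24% of the 32851 RefSeq promoter windows of this length. Within it lies TCACCC, a shorter form chosen after the sequences were seen, which was found in 29.4% of the members' windows and in 16.2% of all windows. CCAAT was found in 64.7% of the members' windows against 37.4% of all, GGGCGG, a core of Sp1 sites, in 76.5% against 35.7%, and the E-box CACGTG in 17.6% against 7.15%. All of these were searched on both strands. These matches describe letters in the windows and do not show binding.

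Total counts ranged from 13106531 to 26643877 per library. The tested members differed widely in depth. Pmvk had 141 to 325 counts per library and Tm7sf2 174 to 351, against 42787 to 196699 for Scd2. Levels are given in CPM, counts scaled to a common library size with TMM factors (a correction for library composition). Log2 fold changes carry their standard error (SE), group means their SD with n = 3 libraries, and a gene was called at an edgeR adjusted p under 0.05. Separate cultures are not mentioned in the labels, and p-values therefore cover the spread among these libraries alone, which may be technical. Ndufa4l2 itself had 6 to 16 counts in empty vector, 6 to 8 in knockout and 35 to 73 in rescue, which checks the rescue label but not the knockout label. Genes of the mitochondrial genome took 5.79% to 7.93% of the counts in knockout, against 2.16% to 3.17% in empty vector and 2.24% to 2.65% in rescue. Kidney epithelial markers were present (6 of 7 tested, all but Epcam). Markers of hepatocytes and adipocytes, which make much lipid, had at most 1 count, and the leukocyte markers Cd3e and Adgre1 had none, although the summed level of 7 leukocyte markers was 9.92 to 11.4 CPM (by library totals) in knockout against 1.78 to 2.61 in empty vector and 2.51 to 2.93 in rescue. That sum came mostly from Lyz2 (a mean of 7.49 CPM in knockout and 0.949 CPM in empty vector) and Csf1r (3.87 and 1.08 CPM). The summed fibroblast markers, of which 1 of 4 was tested, were at 1.45 to 2.11 CPM in empty vector, 4.81 to 5.37 in knockout and 3.73 to 5.07 in rescue. With the genes of the mitochondrial genome left out of the fit, all 96 member results kept their sign and call. Any other part of the mitochondrial share in the results was not tested, nor was that of these markers. Empty-vector replicate 1 stood apart in these genes: it was the highest of the empty-vector libraries for 31 of 32 members, where 38.8% of all tested genes were highest in it. Calls that change without it are given beside the results.

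**Figure D1:**
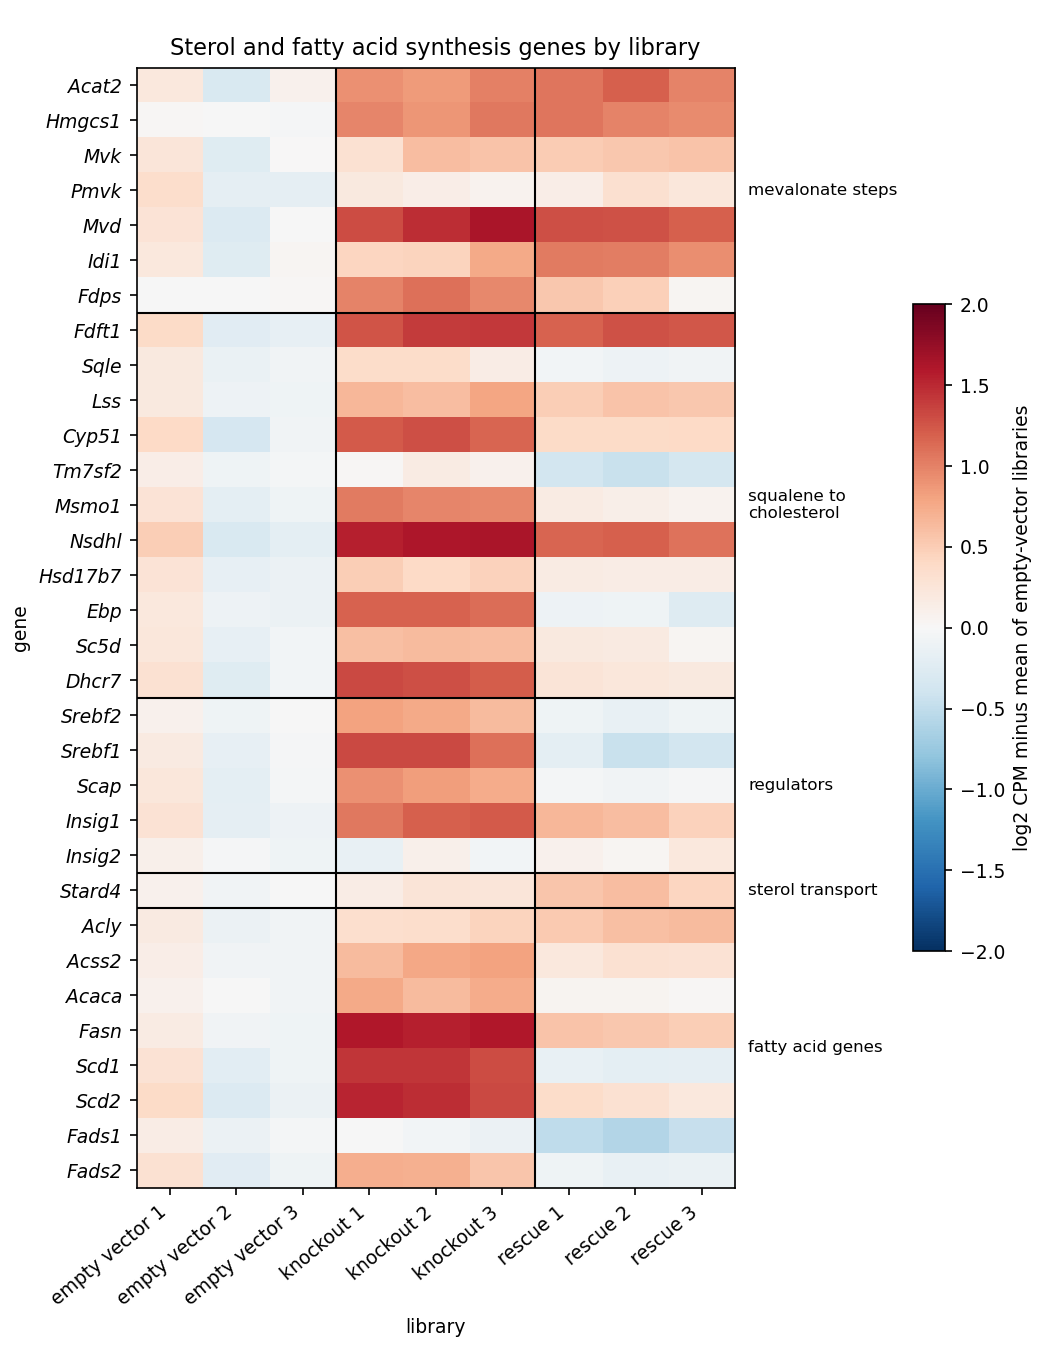
Level of the 32 tested genes (rows, grouped by role) in the 9 libraries (columns), as log2 CPM minus the mean of the empty-vector libraries, from blue (lower) to red (higher). Knockout columns are red for most genes of every group, and replicate 1 is the reddest of the empty-vector columns. Rescue columns are red for the mevalonate genes and for other members, some of which, such as Cyp51, did not pass. Colours show levels and not calls: 6 of 7 mevalonate genes and 8 of the other members passed as higher in rescue than in empty vector.

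Knockout against empty vector compared the edited cells with the reference cells. Genes of both branches were higher in knockout. Of the 32 tested members 28 rose and none fell, where 29.5% of all tested genes rose and 31.1% fell. Their median log2 fold change was 0.78, against -0.02 over all tested genes. At least a doubling was seen in 12 members, against 8.13% of all tested genes. The knockout libraries were all above the empty-vector libraries for 27 members, as for 30.8% of all tested genes, and all below for none (32.8%).

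Among the sterol enzymes 16 of 18 rose, with a median of 0.94. Hmgcs1 (chromosome 13, 119690379 to 119708260, plus strand, mm10), the HMG-CoA synthase that opens the mevalonate pathway, stood at 45.2, 44.0 and 43.8 CPM in the empty-vector libraries and at 87.1, 81.4 and 92.1 CPM in knockout. Those groups were far apart, and the change was 0.97 ± 0.06 log2 units (SE; edgeR adjusted p = 2e-10). Ebp (chromosome X, 8185329 to 8193512, minus strand), which moves a double bond within the sterol ring, had 59.3, 47.3 and 47.2 CPM in empty vector and 115, 115 and 110 CPM in knockout. It rose by 1.14 ± 0.08 (edgeR adjusted p = 5.3e-10), and its highest empty-vector library was replicate 1. Msmo1 (chromosome 8, 64718139 to 64733792, minus strand), which removes methyl groups at carbon 4 of the ring, went from 353, 255 and 276 CPM to 599, 576 and 570 CPM, again with no overlap.

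The other mevalonate genes were Acat2, which joins acetyl-CoA units (0.90 ± 0.11), the mevalonate kinase Mvk (0.48 ± 0.10), the decarboxylase Mvd (1.45 ± 0.12), the isomerase Idi1 (0.54 ± 0.11) and the farnesyl diphosphate synthase Fdps (1.01 ± 0.11), all of which rose. Phosphomevalonate kinase, Pmvk, at 10.7 ± 2.45 CPM in empty vector and 11.6 ± 0.478 CPM in knockout (SD, n = 3), did not pass (0.11 ± 0.13, SE; edgeR adjusted p = 0.51); without empty-vector replicate 1 it did (0.33, edgeR adjusted p = 0.019). From squalene synthase on, the largest increase was in Nsdhl, a sterol dehydrogenase of the same demethylation (1.54 ± 0.19). Next came the squalene synthase Fdft1 itself (1.33 ± 0.14), the last-step reductase Dhcr7 (1.25 ± 0.11) and the lanosterol demethylase Cyp51 (1.20 ± 0.15). Lanosterol synthase, Lss, rose by 0.69 ± 0.08, the desaturase Sc5d by 0.61 ± 0.08 and Hsd17b7, the reductase of the demethylation, by 0.44 ± 0.09. Squalene epoxidase, Sqle, had the smallest called change of the sterol enzymes (0.29 ± 0.09, edgeR adjusted p = 0.0069), from 1102, 870 and 915 CPM in empty vector to 1232, 1238 and 1062 CPM in knockout, so the libraries overlapped. The reductase Tm7sf2 did not pass (0.09 ± 0.10).

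The regulators rose with the enzymes, in 4 of 5 cases with a median of 0.82. Srebf2 (chromosome 15, 82147181 to 82205379, plus strand) stood at 1459, 1293 and 1360 CPM in empty vector and at 2400, 2321 and 2116 CPM in knockout, a change of 0.73 ± 0.08 (edgeR adjusted p = 9.5e-08). Srebf1 (chromosome 11, 60199089 to 60222581, minus strand) went from 442, 346 and 383 CPM to 971, 968 and 836 CPM, a larger change of 1.24 ± 0.09 (edgeR adjusted p = 2.8e-09). For both, every knockout library lay above every empty-vector library. The table counts whole genes, so the SREBP-1a and SREBP-1c forms of Srebf1 were not separated. Scap rose by 0.82 ± 0.08. The Insig pair differed: Insig1, an SREBP target that holds the SREBPs back, had 142, 103 and 108 CPM in empty vector and 241, 266 and 273 CPM in knockout (1.14 ± 0.11), whereas Insig2 had 47.3, 43.8 and 41.9 against 40.1, 47.3 and 42.6 CPM and did not pass (-0.04 ± 0.08, edgeR adjusted p = 0.7). The ratio of Insig1 to Insig2 in the deposited FPKM (fragments scaled by gene length and library size) was 2.97 ± 0.37 in empty vector and 6.76 ± 0.44 in knockout (SD, n = 3; exact two-sided permutation p = 0.10, the smallest that 3 against 3 allows). Stard4, which carries sterol between membranes, rose by 0.21 ± 0.07 (edgeR adjusted p = 0.01). That call did not hold without empty-vector replicate 2 (edgeR adjusted p = 0.054), without knockout replicate 2 (0.051), without a filter on low counts (0.069) or with library totals as the scale (0.47).

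Of the 8 tested fatty acid genes 7 rose in knockout, with a median of 0.72. Fatty acid synthase, Fasn (chromosome 11, 120805846 to 120824547, minus strand), stood at 425, 364 and 358 CPM in empty vector and at 1161, 1122 and 1153 CPM in knockout. Its change of 1.58 ± 0.07 (edgeR adjusted p = 1.5e-12) and that of Nsdhl (1.54 ± 0.19) were the largest of the 32 members; without empty-vector replicate 1 they were 1.68 for Fasn and 1.85 for Nsdhl. The stearoyl-CoA desaturase Scd1 (chromosome 19, 44394451 to 44407709, minus strand) went from 1378, 973 and 1060 CPM to 3021, 3034 and 2766 CPM (1.37 ± 0.10), and its neighbour Scd2 rose by 1.41 ± 0.13. Acaca (chromosome 11, 84129672 to 84401651, plus strand), the carboxylase that commits acetyl-CoA to fatty acids, had 241, 225 and 216 CPM in empty vector and 385, 351 and 381 CPM in knockout (0.71 ± 0.06, edgeR adjusted p = 1.1e-08). None of these groups overlapped. The acetyl-CoA suppliers also rose, Acss2, which uses acetate, by 0.74 ± 0.07 and Acly, which splits citrate, by 0.37 ± 0.07.

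The desaturases of polyunsaturated fatty acids parted. Fads2 (chromosome 19, 10064164 to 10101503, minus strand), the delta-6 desaturase, rose by 0.64 ± 0.11 (edgeR adjusted p = 6.6e-05), from 995, 689 and 762 CPM to 1330, 1313 and 1182 CPM. Fads1 (chromosome 19, 10182888 to 10196870, plus strand), the delta-5 desaturase encoded beside it, had 1119, 933 and 983 CPM in empty vector and 1000, 972 and 932 CPM in knockout and did not pass (-0.06 ± 0.08, edgeR adjusted p = 0.48). The libraries overlapped for Fads1 and not for Fads2. Within each library the FPKM ratio of Fads1 to Fads2 was 0.491, 0.590 and 0.563 in empty vector and 0.328, 0.323 and 0.344 in knockout, lower in all 3 knockout libraries (exact two-sided permutation p = 0.10, the smallest possible).

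**Figure D2:**
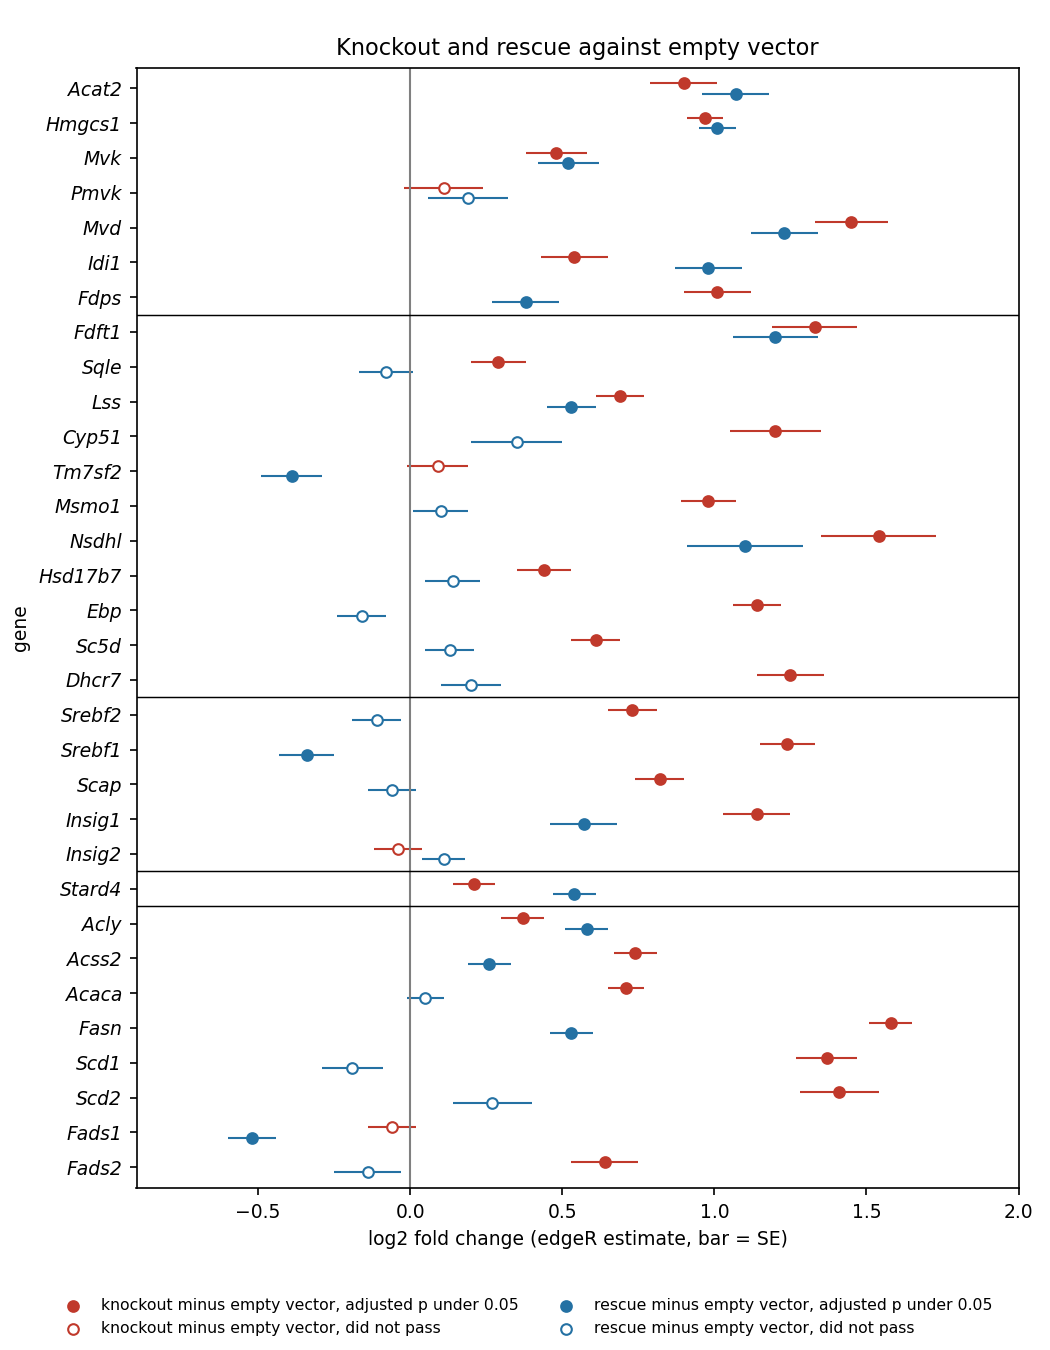
Log2 fold change of each tested gene (rows, grouped by role) in knockout (red) and rescue (blue) against the same empty-vector libraries, with SE bars; filled points passed an edgeR adjusted p of 0.05 and open points did not. Red and blue points lie close together for Hmgcs1, Mvk and Fdft1 and far apart for Ebp, Dhcr7, Srebf1 and Scd1.

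Rescue against knockout compared the cells that re-express the gene with the knockout cells. Most later sterol enzymes, regulators and fatty acid genes were lower in rescue, whereas most mevalonate genes did not pass. Of the 32 members 20 fell and 3 rose, where 27.3% of all tested genes fell and 29.5% rose. The median over the members was -0.47, against 0.03 over all tested genes. At least a halving was seen in 6 members, against 8.4% of all tested genes. The rescue libraries were all below the knockout libraries for 23 members (30.7% of all tested genes) and all above for 3 (34.6%). This comparison shares the knockout libraries with the one above, so the values stand side by side and are not independent.

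Within the sterol pathway the values differed by gene, and no difference between its stretches was tested. Of the 7 mevalonate genes, 1 fell and 1 rose, with a median of 0.04. Hmgcs1 stood at 92.9, 88.3 and 85.6 CPM in rescue, overlapping knockout, a change of 0.03 ± 0.06 (edgeR adjusted p = 0.67). Acat2 (0.16 ± 0.11), Mvk (0.04 ± 0.10), Pmvk (0.09 ± 0.13) and Mvd (-0.22 ± 0.11) did not pass either, although Mvd was called lower with DESeq2 (adjusted p = 0.049), without a filter on low counts (edgeR adjusted p = 0.046), without knockout replicate 1 (0.036) and when only these groups were fitted (0.0022). Idi1 was higher in rescue by 0.44 ± 0.10 (edgeR adjusted p = 0.0025). It had 55.2, 56.2 and 69.6 CPM in knockout and 84.4, 83.8 and 78.2 CPM in rescue. Fdps was the mevalonate gene that fell (-0.63 ± 0.10, edgeR adjusted p = 3.5e-05).

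From squalene synthase on, 8 of 11 enzymes fell and none rose, with a median of -0.48. Ebp dropped to 47.3, 48.1 and 42.5 CPM, within or below its empty-vector range (-1.30 ± 0.08 against knockout, edgeR adjusted p = 9.8e-11). Dhcr7 (chromosome 7, 143823145 to 143848410, plus strand) went from 581, 572 and 541 CPM in knockout to 279, 274 and 267 CPM in rescue (-1.05 ± 0.11), and Msmo1 to 327, 315 and 308 CPM (-0.88 ± 0.09). In all 3 genes no rescue library reached a knockout library. Cyp51 (-0.84 ± 0.15), Tm7sf2 (-0.48 ± 0.10), Sc5d (-0.48 ± 0.08), Sqle (-0.38 ± 0.09) and Hsd17b7 (-0.30 ± 0.09) also fell. Fdft1 (-0.13 ± 0.13), Lss (-0.15 ± 0.07) and Nsdhl (-0.44 ± 0.19) did not pass in the fit to all 9 libraries; when only the knockout and rescue libraries were fitted, they did, with edgeR adjusted p-values of 0.021, 0.0054 and 4.3e-08.

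**Figure D3:**
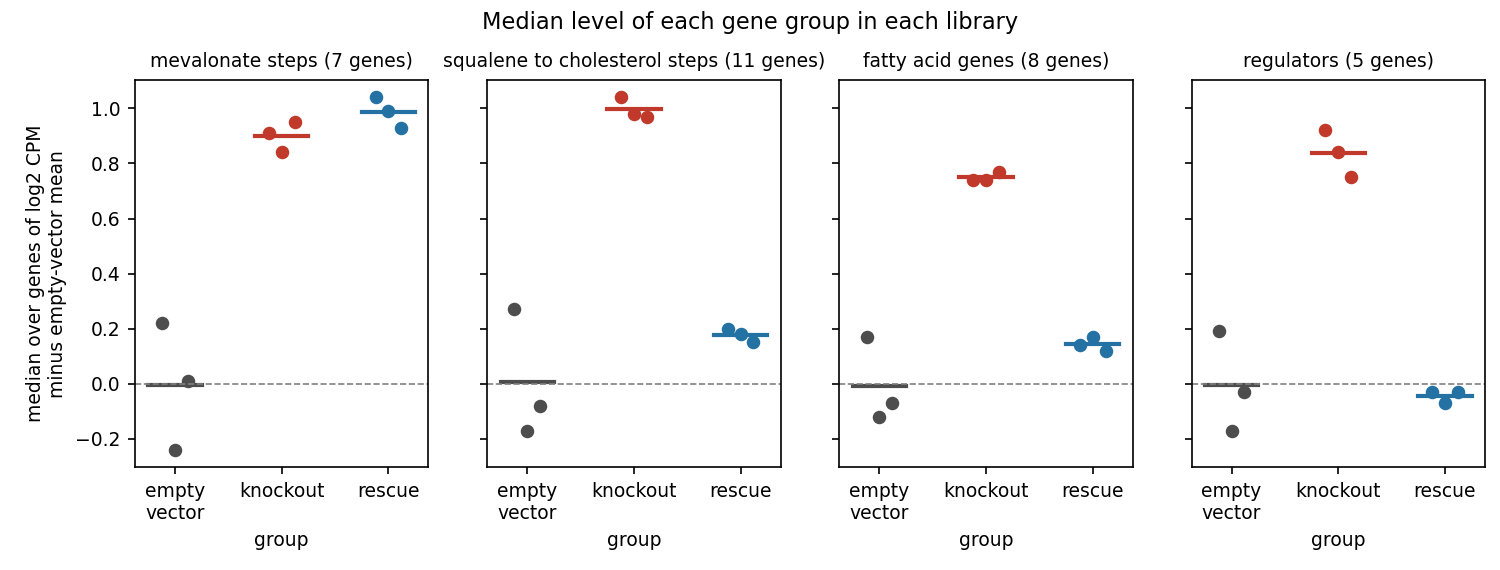
Median over the genes of each group of log2 CPM minus the empty-vector mean (y axis), 1 point per library and a line at the group mean. Rescue points of the mevalonate genes lie at 0.93 to 1.04, beside knockout at 0.84 to 0.95. Rescue points of the later enzymes (0.15 to 0.20), fatty acid genes (0.12 to 0.17) and regulators (-0.07 to -0.03) lie within the empty-vector range. For the later enzymes and fatty acid genes the top of that range is empty-vector replicate 1 (0.27 and 0.17). Their rescue points lie above empty-vector replicate 2 (-0.17 and -0.12) and replicate 3 (-0.08 and -0.07).

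Of the regulators 4 of 5 fell in rescue against knockout, with a median of -0.84. Srebf1 dropped to 340, 286 and 300 CPM (-1.58 ± 0.09, edgeR adjusted p = 1.4e-10), and Srebf2 to 1293, 1241 and 1288 CPM (-0.84 ± 0.08, edgeR adjusted p = 1.8e-08). Scap fell by 0.88 on the log2 scale, to 92.4 ± 1.50 CPM (SD, n = 3). Insig1, at 185, 179 and 160 CPM, fell only part of the way (-0.57 ± 0.11, SE). Insig2, at 46.9, 45.6 and 51.3 CPM, did not pass (0.15 ± 0.08, edgeR adjusted p = 0.11). Stard4 was higher in rescue than in knockout by 0.33 ± 0.07, at 153, 160 and 140 CPM.

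In the fatty acid branch 7 of 8 genes fell and 1 rose, with a median of -0.72. Scd1 went to 1010, 983 and 990 CPM (-1.56 ± 0.10, edgeR adjusted p = 4.5e-10), Fasn to 569, 556 and 534 CPM (-1.05 ± 0.07, edgeR adjusted p = 3.7e-10) and Acaca to 237, 235 and 232 CPM (-0.67 ± 0.06, edgeR adjusted p = 3e-08). Every rescue library was below every knockout library for these genes. Scd2 (-1.14 ± 0.13), Fads2 (-0.78 ± 0.11), Acss2 (-0.47 ± 0.07) and Fads1 (-0.46 ± 0.08) fell as well. Acly was the exception, at 337, 356 and 362 CPM against 294, 300 and 320 CPM in knockout (0.21 ± 0.07, edgeR adjusted p = 0.022). The Acly call was lost without knockout replicate 1 (adjusted p = 0.084) or 2 (0.069) and without rescue replicate 2 (0.06) or 3 (0.072).

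Rescue against empty vector asked how near the rescue cells stood to the reference. Of the 32 members 14 were higher and 3 lower in rescue, where 22.4% of all tested genes were higher and 25.1% lower. The median was 0.23, against -0.02 over all tested genes. The rescue libraries were all above the empty-vector libraries for 14 members (26.5% of all tested genes) and all below for 3 (28.6%). At least a doubling was seen in 5 members, against 2.12% of all tested genes. Without empty-vector replicate 1, the library in which these genes were highest, 22 members were higher and 3 lower. Without empty-vector replicate 2 the lower members numbered 5.

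Among the mevalonate genes 6 of 7 were higher in rescue than in empty vector, with a median of 0.98. Hmgcs1 was higher by 1.01 ± 0.06 (edgeR adjusted p = 4.6e-10). Mvd had 33.2, 22.8 and 27.4 CPM in empty vector, 67.6, 76.6 and 85.2 CPM in knockout and 67.3, 66.2 and 63.2 CPM in rescue, and was higher in rescue than in empty vector by 1.23 ± 0.11 (edgeR adjusted p = 1.8e-06). Idi1 was higher by 0.98 ± 0.11 (edgeR adjusted p = 4.8e-06), with 47.5, 34.8 and 42.2 CPM in empty vector. No rescue library of these 3 genes was as low as an empty-vector library. Acat2 (1.07 ± 0.11), Mvk (0.52 ± 0.10) and Fdps (0.38 ± 0.11) were higher too, but the Fdps call was lost without rescue replicate 1 (edgeR adjusted p = 0.064). Pmvk passed when empty-vector replicate 1 was left out (0.43, edgeR adjusted p = 0.0029), which made all 7 mevalonate genes higher.

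Of the 11 enzymes from squalene synthase on, 3 were higher, 1 was lower and 7 did not pass, with a median of 0.14. The higher ones were Fdft1 (1.20 ± 0.14), Nsdhl (1.10 ± 0.19) and Lss (0.53 ± 0.08). Tm7sf2 was lower, at 10.8, 10.2 and 10.9 CPM against 15.3, 13.1 and 13.5 CPM (-0.39 ± 0.10, edgeR adjusted p = 0.003). Without empty-vector replicate 1, Cyp51 (0.60), Dhcr7 (0.40), Hsd17b7 (0.31), Msmo1 (0.28) and Sc5d (0.28) also passed, which made 8 of 11 higher. Whether these enzymes stood at the reference level in rescue therefore depends on that library.

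Srebf1 was lower in rescue than in empty vector (-0.34 ± 0.09, edgeR adjusted p = 0.0054), and Insig1 was higher (0.57 ± 0.11, edgeR adjusted p = 0.00065). Srebf2 (-0.11 ± 0.08), Scap (-0.06 ± 0.08) and Insig2 (0.11 ± 0.07) did not pass, although Insig2 did without empty-vector replicate 1 (0.19, edgeR adjusted p = 0.039). Among the fatty acid genes Acly (0.58 ± 0.07), Fasn (0.53 ± 0.07) and Acss2 (0.26 ± 0.07) were higher. Fads1, at 708, 672 and 734 CPM, was lower than in empty vector by 0.52 on the log2 scale (edgeR adjusted p = 1.4e-05), below every library of both other groups. Acaca, Scd1, Scd2 and Fads2 did not pass, although Scd2 did without empty-vector replicate 1 (0.51) and in the fit with a replicate block (0.29, edgeR adjusted p = 0.04). Without empty-vector replicate 2, Scd1 (-0.30, edgeR adjusted p = 0.011) and Fads2 (-0.25, edgeR adjusted p = 0.032) passed as lower. Stard4 was higher by 0.54 ± 0.07.

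**Figure D4:**
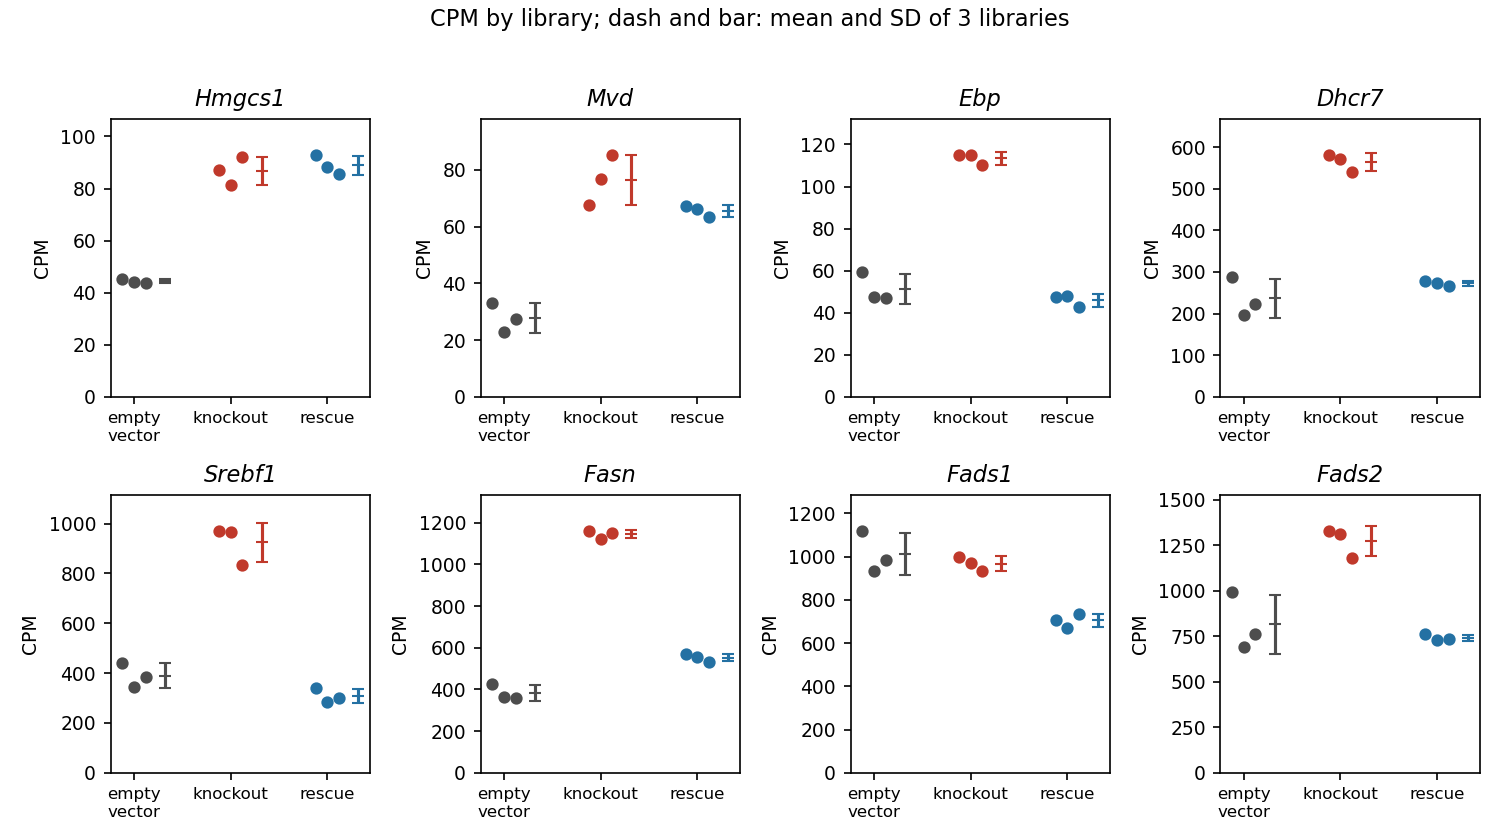
CPM of 8 genes in each library (points), with the mean and SD of 3 libraries beside them, for empty vector (grey), knockout (red) and rescue (blue); the y axes start at 0 and differ. Hmgcs1 and Mvd are high in knockout and rescue, Ebp, Dhcr7, Srebf1 and Fads2 in knockout alone, Fasn lies between in rescue, and Fads1 is lowest in rescue.

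Set side by side, the sterol enzymes and the fatty acid genes had medians of 0.94 and 0.72 in knockout against empty vector, -0.34 and -0.72 in rescue against knockout, and 0.37 and 0.16 in rescue against empty vector. The mevalonate genes stood at 0.04 and the later enzymes at -0.48 in rescue against knockout. Summed over members, fatty acid genes took 16084 ± 866 CPM in knockout, against 7236 ± 1369 CPM in empty vector and 7711 ± 243 CPM in rescue (SD, n = 3). Most of that sum in knockout was Scd2 (8997 ± 630 CPM) and Scd1 (2940 ± 151 CPM). Sterol enzymes took 4384 ± 114 CPM in knockout, against 2534 ± 418 CPM in empty vector and 3027 ± 41.2 CPM in rescue. Mevalonate genes alone summed to 442 ± 28.1 CPM in knockout and 464 ± 20.3 CPM in rescue, against 241 ± 32 CPM in empty vector. Fewer cells expressing a gene and less RNA per cell cannot be told apart in these bulk libraries.

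On the deposited FPKM scale, which divides by gene length, Scd2 (495 to 1745 over the 9 libraries) and Fads2 (448 to 885) were the most abundant members, followed by Scd1 (197 to 628), Fads1 (193 to 324) and Srebf2 (172 to 335). Sqle, at 154 to 223 FPKM, was the most abundant sterol enzyme, and Tm7sf2, at 1.82 to 2.79 FPKM, the least abundant tested member. That order is by the mean over 9 libraries: in empty vector Fads1 (290 ± 30.7 FPKM) lay above Scd1 (233 ± 46.2 FPKM; SD, n = 3). Over all 9 libraries the ranges of neighbours among Scd2, Fads2, Scd1, Fads1, Srebf2 and Sqle overlapped. The deposited length of Fads2 is 1508 bases and that of Fads1 3456, and FPKM depends on these lengths. The FPKM ratio of Srebf1 to Srebf2 was highest in knockout, at 0.517 ± 0.014, against 0.362 ± 0.023 in empty vector and 0.309 ± 0.023 in rescue (SD, n = 3). For Scd1 to Scd2 it was 0.383 ± 0.020, 0.369 ± 0.0089 and 0.276 ± 0.013, where only rescue lay apart from both other groups. With 3 libraries against 3 the exact two-sided permutation p of a ratio cannot fall below 0.10.

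Other genes of the pathways were taken from lists. Their counts stand against 29.5% of all tested genes higher and 31.1% lower in knockout against empty vector, 29.5% higher and 27.3% lower in rescue against knockout, and 22.4% higher and 25.1% lower in rescue against empty vector, with medians over all tested genes of -0.02, 0.03 and -0.02. Of 17 tested genes of sterol synthesis, uptake and SREBP processing, 10 rose and 4 fell in knockout against empty vector (median 0.45). The lipoprotein receptors Lrp1 (1.95 ± 0.11, SE) and Vldlr (1.27 ± 0.08) rose, and Mbtps2, a protease that cuts SREBPs, fell by 0.72. In rescue against knockout 13 of these genes fell and 2 rose. In rescue against empty vector 5 were higher and 8 lower (median -0.03).

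Of 25 further genes of fatty acid and lipid synthesis, 19 rose and 2 fell in knockout against empty vector (median 0.41), where 29.5% of all tested genes rose and 31.1% fell. Those that rose included the phosphatidate phosphatase Lpin1 (1.92 ± 0.09), the second acetyl-CoA carboxylase Acacb (1.45 ± 0.07), the triglyceride enzyme Dgat1 (1.17 ± 0.07) and Aacs, which activates acetoacetate (1.09 ± 0.08). In rescue against knockout 16 fell and 3 rose, with Dgat1 at -1.23 ± 0.07. In rescue against empty vector 10 were higher and 5 lower (median -0.04), and Lpin1 was among the higher (1.46 ± 0.09). Of 9 tested genes of sterol efflux and the LXR receptors, which respond to oxysterols, 5 rose and none fell in knockout (median 0.26). They included the cholesterol exporter Abca1 (1.71 ± 0.08), the receptors Nr1h2 (0.72 ± 0.07) and Rxra (0.71 ± 0.07) and the sterol hydroxylase Cyp27a1 (0.26 ± 0.07). In rescue against knockout 8 of these 9 genes fell and none rose. In rescue against empty vector 2 were higher and 5 lower (median -0.52). Abca1 was among the lower, with a mean of 41 CPM in rescue against 76.7 in empty vector and 251 in knockout.

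The isoprenoid branches, which draw on farnesyl diphosphate without making sterol, had 7 of 10 genes that fell and none that rose in knockout against empty vector (median -0.37), where 31.1% of all tested genes fell. Pggt1b, a subunit of a protein prenyltransferase, went from 33 to 17.4 CPM (-0.92 ± 0.09), Coq2, of ubiquinone synthesis, from 55.8 to 33.7 CPM (-0.72 ± 0.09), Pdss1, which builds the ubiquinone side chain, stood at -0.59 ± 0.10 and Nus1, of dolichol synthesis, at -0.50 ± 0.06. In rescue against knockout 5 rose and 1 fell, and in rescue against empty vector 6 were lower and 1 higher.

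Some members share positions or sequence with other genes, and no source used here says whether the counting was strand-specific. Fdft1 overlaps Ctsb, a lysosomal protease gene on the other strand, over 774 bases. Ctsb had 153892 counts over the 9 libraries against 15025 for Fdft1, rose in knockout (1.35 ± 0.10) and fell in rescue against knockout (-1.33 ± 0.10), so the Fdft1 values are uncertain. Acss2 shares 22544 bases with Gss on the other strand, and Tm7sf2 shares 9356 bases with Vps51 on the same strand, so their values are uncertain too. Scd1 and Scd2 resemble each other and Scd3 (31.8 CPM in knockout), so reads may be split between copies. The near copies Acat3 and Idi2 had at most 15 and 1 counts in a library. By the authors' deposited table, members higher in knockout than in empty vector numbered 28 and none was lower, the same call as here for all 32. In rescue against knockout, 3 were higher and 23 lower by the authors' deposited table, with the same call for 29 of 32, and 14 were higher and 3 lower in rescue against empty vector, with the same call for all 32.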

How the data were processed

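RNA of 9 RENCA libraries, 3 per group, was counted per gene. CASAVA, TopHat2, HISAT and HISAT2 and the build mm10 are listed in the submitters' processing notes, without versions or roles; no source used here names the counter. The deposited counts are raw whole numbers per gene. The authors also deposited FPKM per library and, for each comparison, log2 fold changes and adjusted p-values from a test that no source used here names. The design text mentions fewer knockout replicates than the 3 tabulated; all 3 were used.

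Counts were filtered with filterByExpr (13326 of 54532 genes kept), scaled by TMM and fitted with edgeR 4.0.16 in R 4.3.3 as a robust quasi-likelihood model with 1 mean per group over 9 libraries. F-tests were adjusted by Benjamini-Hochberg over all genes tested, with calls at 0.05. The SE was taken as the absolute log2 fold change over the square root of F. Members and lists were chosen with earlier results of these data known, so no list was tested; counts and medians stand beside those of all genes. The 33 members are all named; of each other list up to 4 genes with the smallest adjusted p in knockout against empty vector are named, apart from any not reported here. Within groups, every pair of libraries differed beyond counting noise (chi-square over its degrees of freedom between 3.43 and 18.4). The test was run on simulated counts. In knockout against empty vector, simulated for 13130 genes, it recovered 71.6% of 67 genes changed 1.5-fold, 70.1% of 67 changed 2-fold and 100% of 66 changed 4-fold. There were 12 false calls among 173. No other genes were changed in this simulation, whereas 29.5% of all tested genes rose and 31.1% fell in the data. The simulated rates therefore need not hold for the data. Alternatives were DESeq2 1.42.0, other scalings, no filter, no mitochondrial genome genes, pairs of groups, a replicate block and leaving out each library.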

Additional observations from a re-analysis of the deposited data

How the results depend on the processing

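The 28 members called higher in knockout against empty vector numbered 26 to 29 over all alternatives, and the 20 called lower in rescue against knockout 19 to 24. With library totals alone as the scale, which moved the median of all genes from -0.02 to -0.17 in knockout against empty vector and from 0.03 to 0.22 in rescue against knockout, 2 members were lower in the former (Insig2 and Fads1) and 7 higher in the latter. The medians in knockout against empty vector were then 0.75 for mevalonate genes, 0.57 for fatty acid genes and 0.67 for regulators, and in rescue against knockout -0.15 for sterol enzymes, 0.22 for mevalonate genes, -0.29 for later enzymes, -0.54 for fatty acid genes and -0.65 for regulators. The share of calls that were higher over all genes went from 48.7% to 34.4% and from 51.9% to 69.6%. The sign turned on that scale for Pmvk (-0.04) and Tm7sf2 (-0.07) in knockout against empty vector and for Fdft1 (0.06) and Lss (0.03) in rescue against knockout, none of them called. Without a filter on low counts the medians in rescue against knockout were -0.30 for sterol enzymes and -0.68 for fatty acid genes, and with only those groups fitted -0.75 for fatty acid genes.

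When each library was left out in turn, the median in knockout against empty vector ran from 0.76 to 1.00 for mevalonate genes and from 0.73 to 0.96 for regulators. In rescue against knockout it ran from -0.74 to -0.69 for fatty acid genes and from -0.89 to -0.80 for regulators. In rescue against empty vector it ran from 0.87 to 1.04 for mevalonate genes, from 0.06 to 0.31 for later enzymes and from -0.15 to 0.09 for regulators, while 13 to 22 members were higher and 3 to 5 lower. The 22 higher members were reached without empty-vector replicate 1 and the 5 lower ones without empty-vector replicate 2. Uncalled values that changed sign ran from -0.10 to 0.03 for Insig2 and from -0.13 to 0.03 for Fads1 in knockout against empty vector. In rescue against knockout they ran from -0.01 to 0.08 for Hmgcs1 and from -0.05 to 0.10 for Mvk, and in rescue against empty vector from -0.15 to 0.05 for Sqle, from -0.15 to 0.09 for Scap and from -0.25 to 0.05 for Fads2. The causes were not tested. The replicate numbers did not pair the libraries (correlations of same-numbered deviations from -0.139 to 0.0454), and a fit with the replicate block gave 28 members higher in knockout against empty vector, 20 lower and 3 higher in rescue against knockout, and 15 higher and 3 lower in rescue against empty vector; it changed 1 of 96 member calls, that of Scd2.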
